A study of Mus musculus with 11 samples.

Results

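Genes of blood monocytes, 8 in number, were followed in eosinophils sorted from mouse blood: Csf1r, Ccr2, Ly6c2, Lyz2, Mpeg1, F13a1, Fn1 and Ms4a7. They were picked by name, and each matched 1 of the 55486 genes in the deposited count table, so 8 of 8 were found and all 8 were abundant enough to be tested. Each of the 11 libraries came from the blood of 1 mouse and was made with Smart-seq2, which copies whole transcripts from little RNA. The CIS+IT group held 7 FVB/N mice given cisplatin, a DNA-crosslinking drug, together with anti-PD1 and anti-CTLA4, antibodies that block brakes on T cells. The Control Ab group held 4 FVB/N mice given control antibody. All of them carried metastatic disease derived from mammary tumours and were bled by heart puncture on day 21 of treatment. Their age is not given in the labels, and neither is whether the controls received a vehicle for cisplatin.

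Monocytes are circulating phagocytes that leave the bone marrow and turn into macrophages or dendritic cells in tissue. In the mouse, classical monocytes carry Ly6C and the chemokine receptor CCR2, while non-classical monocytes patrol the vessel wall and depend on CSF1R signalling. Monocytes share CD11b and some F4/80 with mouse eosinophils. The gate used here took cells by these and other properties (live, CD45+, CD11b+, F4/80+, CD3-, side scatter high and Ly6g low). In bulk RNA of this kind, fewer cells of a type and less RNA per cell cannot be told apart.

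Total counts ran from 5356118 to 8016658 in the CIS+IT libraries and from 3733156 to 6721060 in the Control Ab libraries. Eosinophil markers were present in every library, with a summed level of 10 markers between 3482 and 10963 CPM (counts scaled to a common library size) in the CIS+IT group and between 6731 and 9564 CPM in the Control Ab group. Control Ab 3 and Control Ab 4 stood apart from the other libraries. Haemoglobin genes took 28.2% and 20.1% of their counts, against at most 4.42% elsewhere, and 10775 and 11263 genes were detected in them, fewer than in any other library (at least 12639). Sample identifiers in the table header begin with 19 for the CIS+IT group and 20 for the Control Ab group, so if these digits mark a batch, batch and treatment cannot be told apart.

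The monocyte genes spread widely between mice of the same treatment, from 3.04-fold for Csf1r to 44.0-fold for Ccr2 in the CIS+IT group, and from 1.86-fold for Csf1r to 47.0-fold for Ccr2 in the Control Ab group among the 6 members with more than 3 counts in every library. None of the 8 passed the test in either direction, and neither did any other gene (edgeR quasi-likelihood test, adjusted over 11389 genes; 0% of genes called higher and 0% called lower). At an unadjusted p of 0.05 the test counted 777 genes, or 6.82% of those tested, and 0 of the 8 members. DESeq2 called 0.466% of genes higher and 0.171% lower, again with 0 members, and limma-voom called 0 genes. On the log2 scale (CIS+IT over Control Ab) 4 of the 8 members lay above 0, close to the 51.8% of all genes (48.2% lay below 0), and their median was 0.13, against 0.03 for all genes. The ranges of the groups overlapped for all 8 members. In 0.509% of tested genes every CIS+IT library lay above every Control Ab library, and in 0.43% every one lay below.

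The members together took 0.169% to 1.47% of counts in the CIS+IT libraries and 0.097% to 1.16% in the Control Ab libraries. Control Ab 3 was highest for 4 members (Ly6c2, Lyz2, F13a1 and Ms4a7) and among the top 3 libraries for 7 of 8. CIS+IT 6 was highest for Ccr2 and Mpeg1 and among the top 3 for 6 of 8. At the other end, Control Ab 2 was lowest for 4 members and among the bottom 3 for 7 of 8, and CIS+IT 7 was among the bottom 3 for 5. By share of counts CIS+IT 6 was the highest library and Control Ab 2 the lowest, while by summed CPM (TMM-scaled) the order of the top libraries turned, with 13156 CPM in CIS+IT 6 and 17329.9 CPM in Control Ab 3.

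**Figure D1:**
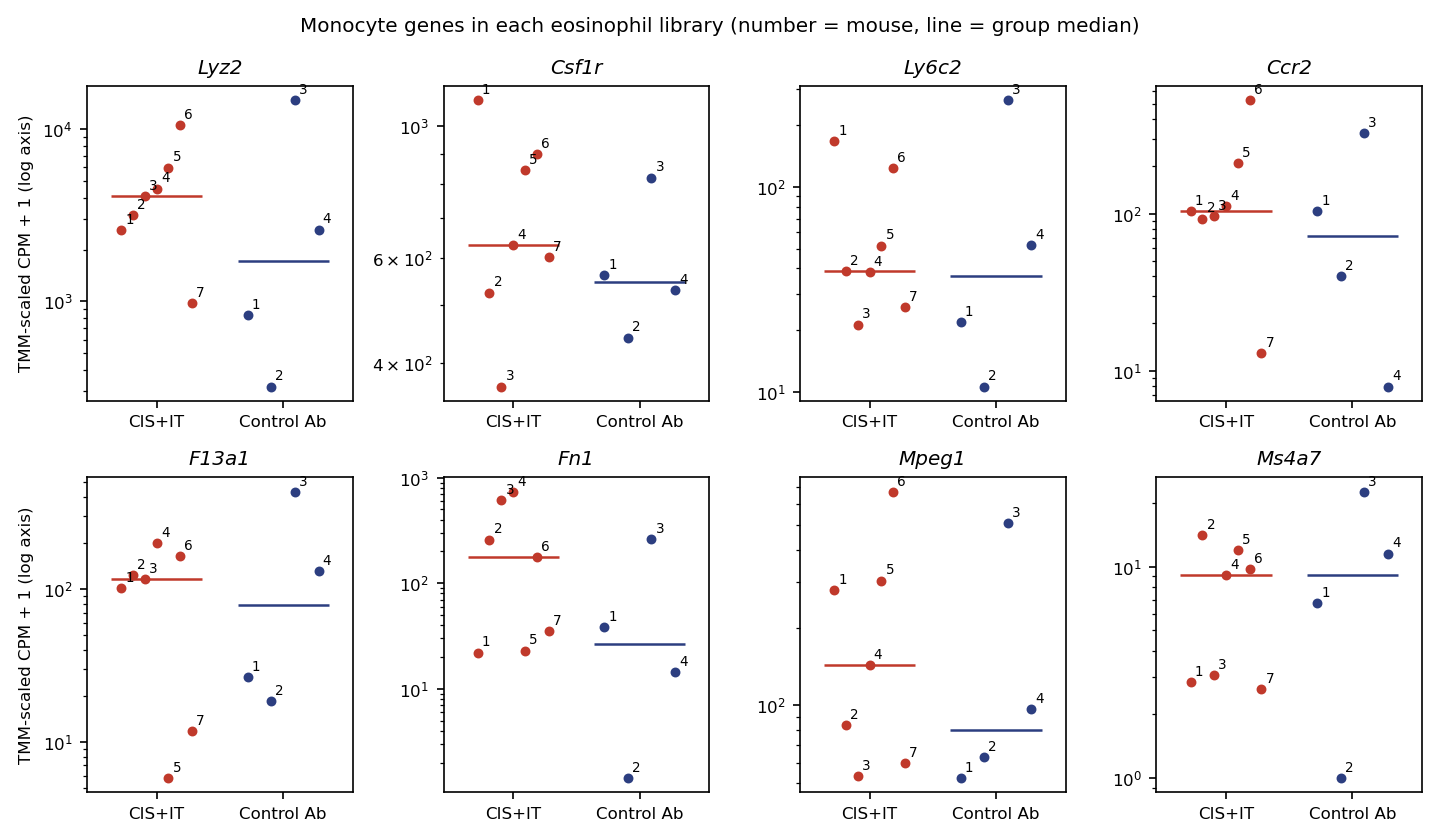
TMM-scaled CPM plus 1 (log axis, with its own range for each gene) of the 8 monocyte genes in each library, with the CIS+IT group on the left and the Control Ab group on the right of each panel; each point is 1 mouse, marked with its number, and the line is the group median. Control Ab 3 lies above the other controls in every panel, and the groups overlap in all 8.

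Per length of exon, Lyz2 stood far above the other members, at 3466 ± 2348 CPM per kb (SD, n = 7) in CIS+IT and 3508 ± 5164 CPM per kb (SD, n = 4) in Control Ab libraries. By its mean over all libraries it held rank 15 of 11383 tested genes with a known length. Csf1r followed at 123 ± 43.6 and 102 ± 28.1 CPM per kb in CIS+IT and Control Ab libraries, and Mpeg1 at 52.2 ± 50.7 and 41.2 ± 50.4 CPM per kb. Ly6c2, Ccr2, F13a1 and Fn1 had means of 15.2 to 24.2 CPM per kb in CIS+IT and 6.71 to 31.4 CPM per kb in Control Ab libraries, and within a group any pair of these means differed by less than the larger of the SDs. Ms4a7 was lowest, at 1.49 ± 1.07 and 2.13 ± 2.06 CPM per kb.

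Csf1r, the receptor tyrosine kinase for CSF1 and IL-34 (chromosome 18, 61100598 to 61132149, GRCm38), was the steadiest member. It ranged from 364 to 1105 CPM with a median of 630 in the 7 CIS+IT libraries, and stood at 561, 440, 819 and 530 CPM in Control Ab 1 to 4. The highest CIS+IT library was 3.04 times the lowest, and the highest control 1.86 times the lowest, the narrowest spread of the 8 members. Its mean was 709 ± 252 CPM (SD, n = 7) in CIS+IT and 587 ± 162 CPM (SD, n = 4) in Control Ab libraries, a log2 fold change of 0.27 ± 0.29 (SE; edgeR adjusted p = 0.931). The control median was exceeded in 5 of 7 CIS+IT libraries.

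Ccr2, the receptor for CCL2 that lets classical monocytes leave the marrow (chromosome 9, 124101950 to 124113557), spread over a far wider range. CIS+IT libraries held 11.9 to 525 CPM with a median of 103, against 103, 38.9, 325 and 6.91 CPM in Control Ab 1 to 4. Each group thus had a library almost without Ccr2 and a library far above its others. The highest library was 44.0 times the lowest in the CIS+IT group and 47.0 times the lowest in the Control Ab group, and the log2 fold change was 0.47 ± 0.95 (SE; edgeR adjusted p = 0.960). Control Ab 4, the lowest library for Ccr2, was not low for Ly6c2, Lyz2 or F13a1.

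Of 6 genes for ligands of these receptors, only Csf1 was abundant enough to be tested. It stood at 101 ± 39.2 CPM (SD, n = 7) in CIS+IT and 62.2 ± 44.2 CPM (SD, n = 4) in Control Ab libraries (edgeR adjusted p = 0.823). Ccl2, the main CCR2 ligand, had counts in 5 of 7 CIS+IT libraries, at up to 6.25 CPM, and 0 counts in all 4 Control Ab libraries.

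Ly6c2 encodes a GPI-anchored antigen of classical monocytes that is part of the Ly6C epitope (chromosome 15, 75108158 to 75111970). Its expression ranged from 20.3 to 166 CPM with a median of 37.9 in CIS+IT libraries, against 20.9, 9.62, 263 and 50.9 CPM in Control Ab 1 to 4. The group medians of 37.9 and 35.9 CPM were nearly equal, while CIS+IT 1, CIS+IT 6 and Control Ab 3 stood at 166, 123 and 263 CPM. The log2 fold change was -0.38 ± 0.83 (SE; edgeR adjusted p = 0.965). The adjacent copy Ly6c1 had 4 counts in all 11 libraries together. In GENCODE M21 transcripts, 13.9% of the 50-base stretches of Ly6c2 also occur in Ly6c1, so some reads could belong to either gene.

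The window around the Ly6c2 start is shown because Ly6c2 is the classical monocyte antigen among the members and its window holds the core AGGAAGT of sites for PU.1, the myeloid factor encoded by Spi1. It runs from 250 bases before the start to 50 after it (chr15:75111922-75112221, GRCm38.p6, minus strand, RefSeq), with the motif in capitals:
Ly6c2: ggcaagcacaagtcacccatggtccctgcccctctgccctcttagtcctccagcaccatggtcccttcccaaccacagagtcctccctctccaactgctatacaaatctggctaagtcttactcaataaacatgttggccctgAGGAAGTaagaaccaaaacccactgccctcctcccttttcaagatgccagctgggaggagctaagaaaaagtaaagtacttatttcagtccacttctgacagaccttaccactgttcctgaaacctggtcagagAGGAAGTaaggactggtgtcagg
The motif AGGAAGT, or ACTTCCT on the other strand, occurs 2 times there. It was found for 3 of the 6 members counted (Ly6c2, Lyz2 and F13a1), taking a match in any window of a gene, with 9 windows in all. The second F13a1 start window listed held it, and the first held 0. Over all genes the count was by window, at 9.35% of the 32851 windows searched, so these shares have unlike units. No window of Csf1r or Fn1 was searched, so whether the starts of these genes hold the motif was not tested. The motif was chosen with the searched windows of the members in view, and a match is a description and not a site. Spi1 itself stood at 1134 ± 337 CPM (SD, n = 7) in CIS+IT and 1115 ± 390 CPM (SD, n = 4) in Control Ab libraries (log2 fold change 0.03 ± 0.29 SE, edgeR adjusted p = 0.994).

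Lyz2 encodes lysozyme M, an enzyme that cleaves bacterial peptidoglycan and is made by monocytes, macrophages and neutrophils (chromosome 10, 117277331 to 117282321). It ranged from 981 to 10598 CPM with a median of 4093 in CIS+IT libraries, and stood at 830, 319, 14704 and 2613 CPM in Control Ab 1 to 4. The control median of 1722 CPM was exceeded in 6 of 7 CIS+IT libraries, while the highest library of all was Control Ab 3. The group means were 4562 ± 3089 CPM (SD, n = 7) and 4617 ± 6796 CPM (SD, n = 4), a log2 fold change of -0.02 ± 0.86 (SE; edgeR adjusted p = 0.998). Without Control Ab 3 the control mean was 1254 CPM and the log2 fold change 1.91 ± 0.73 (SE; edgeR adjusted p = 0.648).

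Lyz1, the lysozyme of intestinal Paneth cells in the mouse, lies next to Lyz2 (chromosome 10, 117287797 to 117292868) and did not follow it. Lyz1 held 0.617 to 266 CPM with a median of 17.9 in CIS+IT libraries, against 0.380, 0.141, 3.21 and 4.00 CPM in Control Ab 1 to 4. Every control lay below 5 of 7 CIS+IT libraries, at a log2 fold change of 5.24 ± 1.70 (SE; edgeR adjusted p = 0.626). CIS+IT 5 and Control Ab 3, which were high for Lyz2, held 1.74 and 3.21 CPM of Lyz1. Of the 50-base stretches of Lyz2 transcripts, 15.4% also occur in Lyz1, and adding the counts of both gave a log2 fold change of 0.0018 for the sum (edgeR adjusted p = 1.00).

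The start windows of both lysozyme genes are shown because the genes are close copies with different patterns here. Both are on the minus strand of GRCm38.p6 (RefSeq; Lyz2 at chr10:117282223-117282522 and Lyz1 at chr10:117292819-117293118), and capitals mark the same motif, read as ACTTCCT:
Lyz2: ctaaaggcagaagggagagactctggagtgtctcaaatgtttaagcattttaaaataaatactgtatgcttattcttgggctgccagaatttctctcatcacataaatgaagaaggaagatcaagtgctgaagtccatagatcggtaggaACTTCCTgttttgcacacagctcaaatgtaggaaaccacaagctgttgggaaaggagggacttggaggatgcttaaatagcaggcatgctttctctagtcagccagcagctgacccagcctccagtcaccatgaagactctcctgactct
Lyz1: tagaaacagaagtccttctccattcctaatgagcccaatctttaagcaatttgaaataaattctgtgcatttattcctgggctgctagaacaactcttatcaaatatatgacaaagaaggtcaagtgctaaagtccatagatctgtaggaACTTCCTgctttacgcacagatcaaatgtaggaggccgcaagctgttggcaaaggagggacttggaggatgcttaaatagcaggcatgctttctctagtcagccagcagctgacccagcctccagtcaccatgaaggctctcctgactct
Compared base by base without gaps, the windows were identical at 201 of 300 positions, and at 99 of the last 100. Stretches out of register count as differences in this comparison. Each held the motif 1 time.

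Mpeg1 encodes perforin-2, a pore-forming protein that kills bacteria inside phagocytes (chromosome 19, 12460779 to 12465283). It ranged from 52.3 to 668 CPM with a median of 142 in CIS+IT libraries, against 51.4, 62.3, 505 and 96.0 CPM in Control Ab 1 to 4. CIS+IT 6 and Control Ab 3 were the highest libraries, and the lowest of the 2 groups, at 52.3 and 51.4 CPM, were close to each other. The log2 fold change was 0.35 ± 0.82 (SE; edgeR adjusted p = 0.969).

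F13a1 encodes the catalytic A subunit of coagulation factor XIII, the transglutaminase that crosslinks fibrin, and is made by monocytes, macrophages and megakaryocytes (chromosome 13, 36867178 to 37050244). It ranged from 4.78 to 199 CPM with a median of 115 in CIS+IT libraries, and stood at 25.4, 17.4, 431 and 130 CPM in Control Ab 1 to 4. At least 101 CPM was found in 5 CIS+IT libraries, while CIS+IT 5 and CIS+IT 7, at 4.78 and 10.7 CPM, lay below every control. The log2 fold change was -0.56 ± 0.97 (SE; edgeR adjusted p = 0.953). Without Control Ab 3 it was 0.89 ± 1.02, and without Control Ab 3 and 4 it was 2.29 ± 1.24 (edgeR adjusted p = 0.942 and 0.635).

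Platelets carry F13a1, and the libraries with the most F13a1 among controls were those with the most platelet RNA. The summed level of 9 platelet markers ran from 759 to 2908 CPM in CIS+IT libraries and was 263, 148, 10543 and 8666 CPM in Control Ab 1 to 4, led by Ppbp and Pf4, chemokines of platelet granules. CIS+IT 5, with the least F13a1, held 1304 CPM of these markers, and CIS+IT 4, with the most F13a1 in its group, 1125 CPM. The part of platelets in the F13a1 values was not tested.

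Fn1 encodes fibronectin, an adhesive matrix and plasma glycoprotein that activated macrophages also make (chromosome 1, 71585520 to 71653200), and had the largest fold change of the 8. It ranged from 21.0 to 734 CPM with a median of 175 in CIS+IT libraries, against 37.5, 0.424, 262 and 13.5 CPM in Control Ab 1 to 4. The value in Control Ab 2 rests on 3 counts, with an exact Poisson 95% interval of 0.0875 to 1.24 CPM for counting error only. CIS+IT libraries 2, 3, 4 and 6 held 258, 610, 734 and 175 CPM, while CIS+IT 1, 5 and 7 lay at 21.0, 22.0 and 34.3 CPM. Only CIS+IT 3 and 4 were above every control, so 2 of 7. The log2 fold change was 1.77 ± 1.37 (SE; edgeR adjusted p = 0.889). Of the listed partners, Itgb1, the beta chain of the fibronectin receptor, stood at 461 ± 121 CPM (SD, n = 7) in CIS+IT and 449 ± 152 CPM (SD, n = 4) in Control Ab libraries, and Itgb3, a platelet and vascular integrin chain, at 193 ± 74.7 and 242 ± 152 CPM.

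The CIS+IT libraries high in Fn1 were those high in resident macrophage markers. The summed level of 13 such markers was 375, 1227, 521 and 201 CPM in CIS+IT 2, 3, 4 and 6, and 7.78, 24.6 and 36.8 CPM in CIS+IT 1, 5 and 7. In Control Ab 1 to 4 it was 21.8, 14.01, 8.01 and 14.5 CPM. Control Ab 3 therefore had 262 CPM of Fn1 with hardly any resident macrophage RNA. C1qb, a chain of complement C1q, stood at 124 ± 173 CPM (SD, n = 7) in CIS+IT and 2.75 ± 3.32 CPM (SD, n = 4) in Control Ab libraries, and C1qc at 81.9 ± 113 and 0.571 ± 1.14 CPM. Of the 13 markers, 12 were detected in some library and 7 were tested, with 0 called. All 7 lay above 0, against 51.8% of all genes, with a median log2 fold change of 5.02. An unadjusted p under 0.05 (edgeR) was found for 5 of the 7, against 6.82% of all genes. Clec4f, which marks Kupffer cells, had 0 counts in all libraries, and Timd4 and Cd163 had 0 counts in all controls. Lyz1 was also highest in CIS+IT 2, 3 and 4, at 89.7, 53.4 and 266 CPM, while CIS+IT 6 and CIS+IT 7 held 17.9 and 15.9 CPM. The part of resident macrophages in the Fn1 and Lyz1 values was not tested. Ly6c2 did not follow these markers: CIS+IT 3, with the most macrophage marker RNA, had the least Ly6c2 of its group, at 20.3 CPM.

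**Figure D2:**
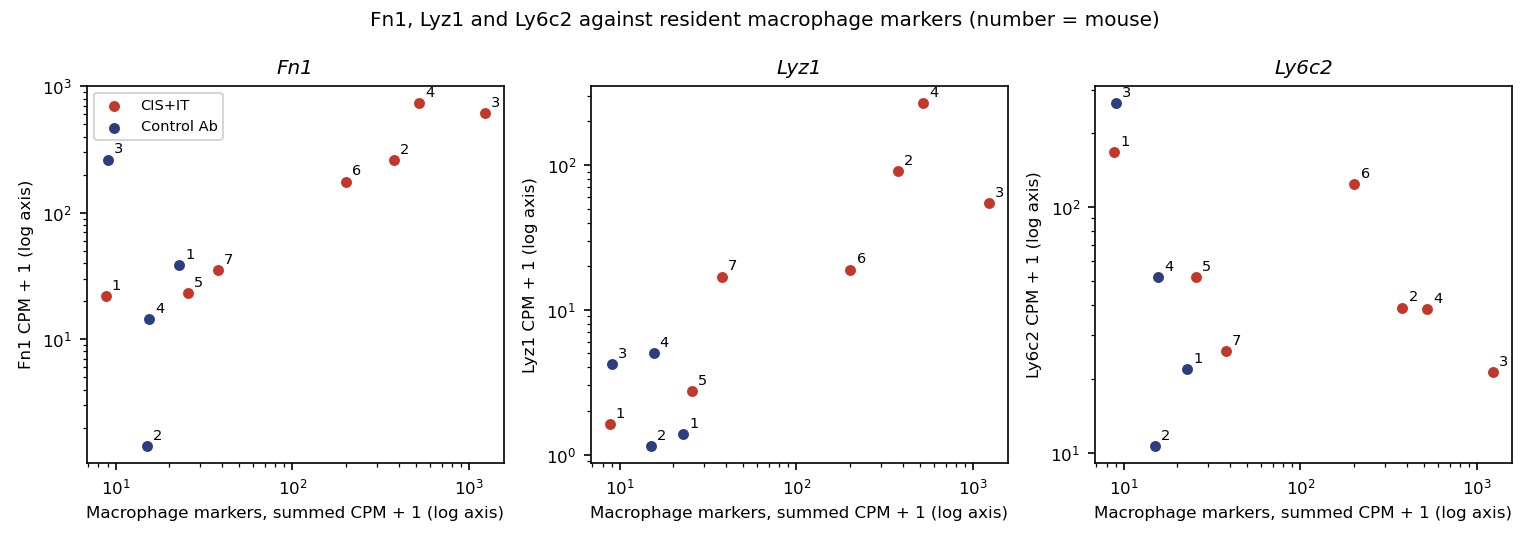
CPM plus 1 of Fn1, of Lyz1 and of Ly6c2 (vertical log axes) against the summed CPM plus 1 of 13 resident macrophage markers (horizontal log axis); each point is 1 library, numbered by mouse, in red for CIS+IT and blue for Control Ab. CIS+IT 2, 3, 4 and 6 lie at 201 to 1227 CPM of macrophage markers with 175 to 734 CPM of Fn1, while Control Ab 3 has 262 CPM of Fn1 at 8.01 CPM of the markers.

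Ms4a7 encodes a four-span membrane protein of monocytes and macrophages (chromosome 19, 11321039 to 11336146) and was close to the detection limit. It held 1.65 to 13.1 CPM with a median of 8.14 in CIS+IT libraries, against 5.71, 0, 21.6 and 10.5 CPM in Control Ab 1 to 4. The 0 in Control Ab 2 allows up to 0.424 CPM, the value of 3 counts, for counting error only. The log2 fold change was -0.50 ± 1.08 (SE; edgeR adjusted p = 0.965), and all 449 counts over 11 libraries leave little precision.

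The sign of 4 members (Lyz2, Ly6c2, F13a1 and Ms4a7) turned on Control Ab 3. Its level was between 1.60 times (Csf1r) and 15.3 times (Fn1) the mean of the other 3 controls. Without it, all 8 log2 fold changes were above 0, with a median of 1.52, against 53.1% of all genes above 0 and a median of 0.05. The largest were 3.93 ± 1.58 for Fn1, 1.91 ± 0.73 for Lyz2 and 1.74 ± 0.79 for Mpeg1 (SE), and these 3 had an unadjusted p under 0.05, as did 7.33% of all genes. None passed adjusted over all genes (edgeR adjusted p from 0.648 for Lyz2 to 0.990 for Ms4a7), and 0% of genes did.

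Without Control Ab 3 and Control Ab 4 the 8 fold changes were again above 0, with a median of 2.09, against 55.1% of all genes and a median of 0.10. Lyz2 then had 3.03 ± 0.79 and Ly6c2 2.13 ± 0.81 (SE), with an unadjusted p of 0.00207 and 0.0206 (edgeR), where 8.57% of all genes lay under 0.05. Neither passed adjusted over all genes (edgeR adjusted p = 0.223 and 0.483), and only 2 controls remained in that fit. Beside the high haemoglobin share, Control Ab 3 also had the highest summed markers of dendritic cells (96.6 CPM, against 10.7, 0.141 and 24.0 in the other controls) and of T and NK cells (172 CPM, against 21.2, 37.6 and 126). Of the neutrophil list, S100a8 and Ngp were high there too, but Retnlg, its most abundant gene, was not the highest. Retnlg stood at 4201, 11030, 10163 and 15651 CPM in Control Ab 1 to 4. S100a8, a calcium-binding protein of neutrophils and classical monocytes, ran from 6.77 to 382 CPM in CIS+IT libraries and was 379.6, 13.6, 1475 and 4.36 CPM in Control Ab 1 to 4. Ngp, a granule protein of neutrophil precursors, ran from 35.5 to 599 CPM in CIS+IT libraries and was 254, 14.4, 1310.2 and 143 CPM in Control Ab 1 to 4. Both were highest in Control Ab 3, as was Lyz2, which neutrophils also make. The part of these cells in the monocyte gene levels was not tested.

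The signs also turned with the model. All 8 members lay above 0 with limma-voom quality weights (median 1.17), against 6150 of all 11389 genes (median 0.065). The same held with the number of detected genes as a covariate (median 1.18), against 6103 of 11389 genes (median 0.0575). In each of these fits 0 were called. Identifiers carry the letters KDV in CIS+IT 1 and all 4 controls and VIS in CIS+IT 2 to 7. With these letters as a term the treatment rests on CIS+IT 1. In that fit 3 of 8 members lay above 0, against 5339 of 11389 genes. The members ran from -2.33 for Ms4a7 to 0.95 for Ly6c2.

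**Figure D3:**
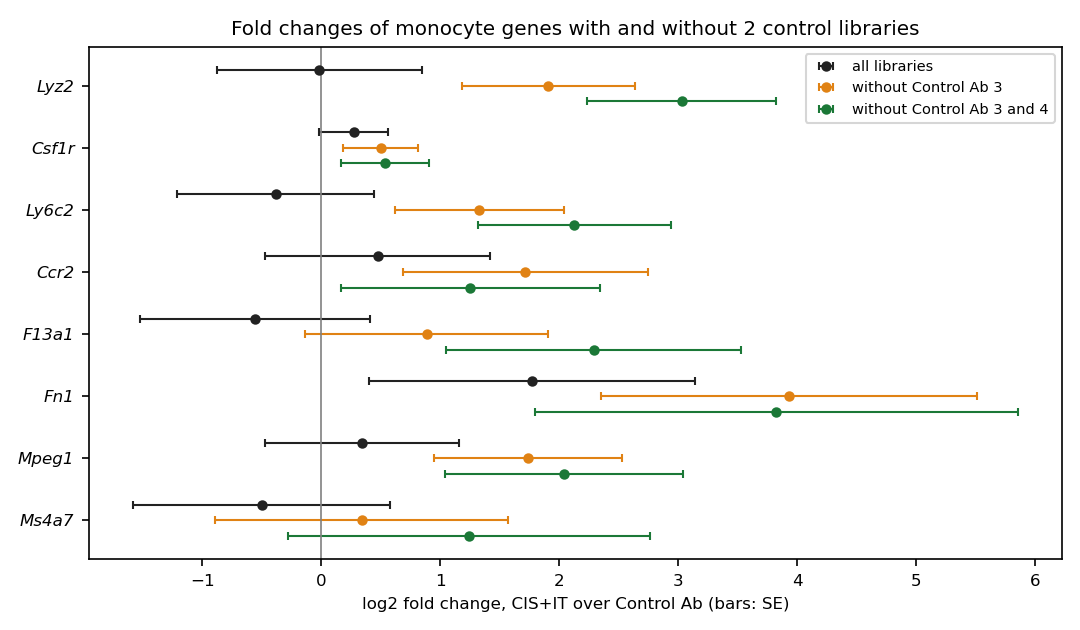
Log2 fold change of each monocyte gene (CIS+IT over Control Ab, edgeR; bars are the SE) with all libraries in black, without Control Ab 3 in orange and without Control Ab 3 and 4 in green. With all libraries 4 of the 8 points lie above 0; without Control Ab 3 all 8 do, and the median moves to 1.52.

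Over all 11 libraries 27 of 28 pairs of members had a Spearman rho above 0, with a median of 0.527 and a range of -0.036 (Csf1r and Fn1) to 0.836 (Ly6c2 and Mpeg1), as a description that pools both groups. Within the 7 CIS+IT libraries the 28 pairs were compared on log2(CPM + 1), and 24 of the Pearson coefficients were above 0 (median 0.35, range -0.67 to 0.97). Lyz2 and Ccr2 went together most closely, with r = 0.973 (exact permutation p = 0.00159, adjusted p = 0.0444 over 28 pairs) and Spearman rho = 0.893 (exact permutation p = 0.0123, adjusted p = 0.133). Dropping the 2 libraries farthest from the Lyz2 median gave 0.765. This was the only pair to pass, by Pearson alone, and no pair passed when any of CIS+IT 2 to 7 was left out (r of Lyz2 and Ccr2 from 0.928 to 0.978). Leaving out a library leaves fewer pairings and raises the smallest possible exact p. A pass was still possible, since 2 pairs passed without CIS+IT 1. Whether the pair rests on single libraries was not settled by these fits. There were 5 pairs under an unadjusted p of 0.05 for each coefficient.

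Csf1r and Ly6c2 had r = 0.894 (exact permutation p = 0.00377, adjusted p = 0.0528) and rho = 0.893 (exact permutation p = 0.0123, adjusted p = 0.133), and 0.789 once the 2 libraries farthest from the Csf1r median were dropped. Csf1r with Mpeg1 had r = 0.842 (exact permutation p = 0.0181, adjusted p = 0.126) and rho = 0.857 (exact permutation p = 0.0238, adjusted p = 0.133), and 0.920 once they were dropped. Fn1 went with F13a1 (r = 0.718, exact permutation p = 0.0774, adjusted p = 0.324; rho = 0.750, exact permutation p = 0.0663, adjusted p = 0.309) and ran against Csf1r (r = -0.671, exact permutation p = 0.103, adjusted p = 0.360; rho = -0.643, exact permutation p = 0.139, adjusted p = 0.389). Without the 2 farthest libraries these were 0.595 and -0.332, and neither passed. Values of 1 library share its depth and its mix of cells. The Control Ab group has too few libraries for a correlation.

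**Figure D4:**
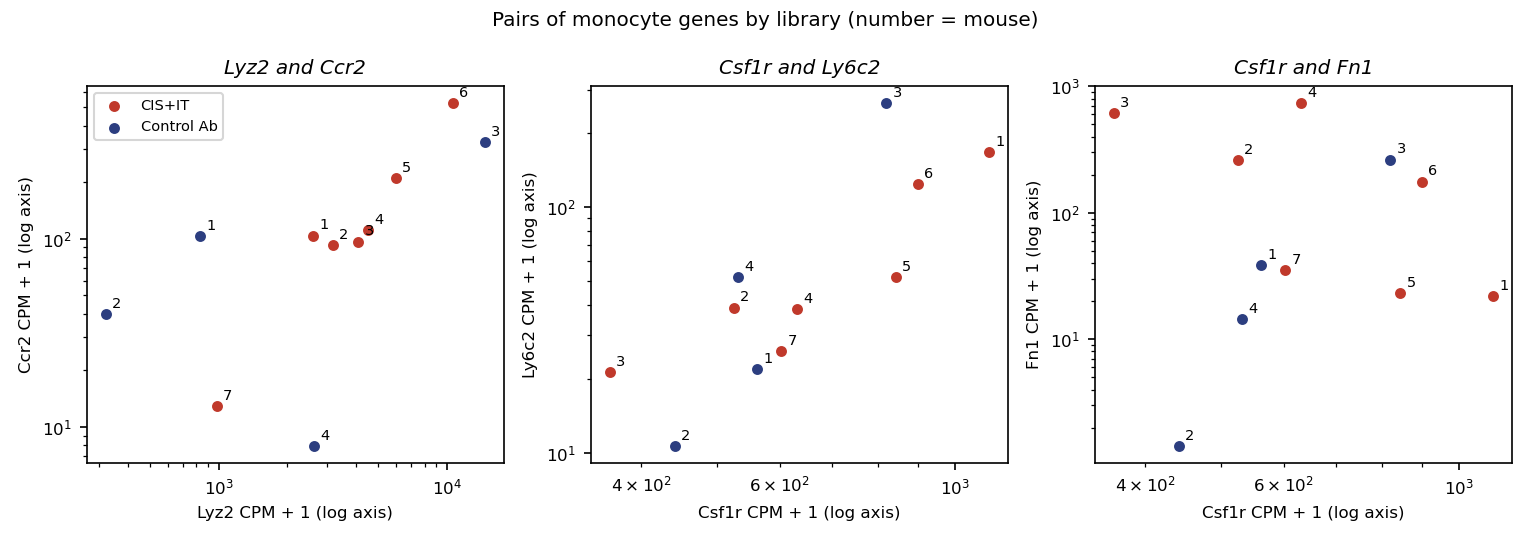
CPM plus 1 (log axes) of Ccr2 against Lyz2, Ly6c2 against Csf1r and Fn1 against Csf1r; each point is 1 library, numbered by mouse, in red for CIS+IT and blue for Control Ab. Lyz2 and Ccr2 lie along a line in the CIS+IT libraries (r = 0.973), while Control Ab 4 has 2613 CPM of Lyz2 with 6.91 CPM of Ccr2.

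The same ratio of members was not kept from library to library. Lyz2 was 1.63 to 11.8 times as high as Csf1r (ratio of CPM, not scaled for length) in CIS+IT libraries, and 1.48, 0.724, 17.96 and 4.93 times in Control Ab 1 to 4. For Ccr2 this ratio ran from 0.0198 to 0.585 in CIS+IT libraries, against 0.183, 0.0884, 0.396 and 0.0130 in Control Ab 1 to 4.

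No gene of the wider monocyte lists was called either. Of 20 further genes of classical monocytes 19 were tested, with 0 called, 11 above 0 and a median log2 fold change of 0.13. Their summed level ran from 4955 to 13794 CPM in CIS+IT libraries, highest in CIS+IT 6, and was 4580, 3127, 12625 and 5558 CPM in Control Ab 1 to 4. The most abundant were Cybb, the catalytic subunit of the phagocyte NADPH oxidase, at 1461 ± 462 CPM (SD, n = 7) in CIS+IT and 1488 ± 514 CPM (SD, n = 4) in Control Ab libraries, and Ctss, a lysosomal protease, at 1147 ± 902 and 724 ± 874 CPM. Of 15 genes of non-classical monocytes 14 were tested, with 0 called, 11 above 0 and a median of 0.52, further from 0 than the members' median. Their summed level ran from 1835 in CIS+IT 3 to 5714 CPM in CIS+IT 5, and was 2763, 2544, 3858 and 3802 CPM in Control Ab 1 to 4. By this sum Control Ab 3 did not stand out, but the sum rests mainly on its most abundant genes. Ace, Treml4 and Cx3cr1 were each highest among controls in Control Ab 3, as given below. Their most abundant members, Pglyrp1 and Adgre4, stood at 1138 ± 316 and 896 ± 304 CPM (SD, n = 7) in CIS+IT and at 1173 ± 282 and 870 ± 204 CPM (SD, n = 4) in Control Ab libraries. All 12 transcription factors of the lineage were tested, with 0 called, 10 above 0 and a median of 0.53.

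Genes with a pattern like that of the members were ranked over the 11 libraries. Among 7738 tested genes with a mean of 10 CPM or more, the highest mean Spearman rho to the 8 members was 0.719 for Il18, a cytokine of macrophages, followed by Ctss, Dse, Cyp27a1, Pilra, Tifab, Pld4, Fpr2, Ms4a6d and Ctsc (0.716 to 0.698). For single members, Lsp1 was nearest to Lyz2 (rho 0.973), Gpr35 to Csf1r (0.945), Plbd1 to Ly6c2 (0.945), Aldh3b1 to Ccr2 (0.936), Ptp4a3 to F13a1 (0.900), Suclg2 to Fn1 (0.955), Arhgef10l to Mpeg1 (0.955) and Lmo2 to Ms4a7 (0.927). These values pool both groups and are a description of 11 libraries.

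Marker genes of cells that the gate was set against were also found. Neutrophils carry high Ly6g, and most B cells lack CD11b and F4/80. The summed neutrophil markers ran from 4854 to 14390 CPM in CIS+IT and from 5854 to 16343 CPM in Control Ab libraries. Most of this sum was Retnlg, at 9271 ± 3699 CPM (SD, n = 7) and 10261 ± 4704 CPM (SD, n = 4). Retnlg did not follow S100a8: Control Ab 4 held the most Retnlg, at 15651 CPM, with S100a8 at 4.36 CPM. Which cells the Retnlg came from was not tested. Summed B cell markers ran from 1392 to 5775 CPM in CIS+IT and from 797 to 2777 CPM in Control Ab libraries, led by Ighm, the heavy chain of IgM. No gene of these lists was called by edgeR.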

How the data were processed

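The deposited table holds raw counts per Ensembl gene for 11 libraries, made by the authors; per the submitters' processing notes, the build was GRCm38 and the tools were HISAT2 2.10, SAMtools 1.15.1 and bcl2fastq 2.20.0.422. Not given in the sources used here: read counter, strand setting, annotation. Near copies or overlapping genes may therefore have shared reads. One row named no gene and held 0 counts; it was left out. Every pair of libraries differed beyond sampling noise (smallest chi-square for each gene on average, 55.2).

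The test was edgeR 4.0.16 under R 4.3.3 (quasi-likelihood, robust, TMM scaling, filterByExpr, Benjamini-Hochberg over all tested genes, threshold 0.05), without covariates, over all libraries. CPM are TMM-scaled, and exon lengths come from GENCODE M21. DESeq2 1.42.0 and limma 3.58.1 were alternatives, and correlations used Python 3.11.15. On simulated counts with each gene's own spread, a log2 change of 1 was found for 3 of 50 genes and of 2 for 25 of 50. A change of 3 was found for 39 of 50 and of 4 for 42 of 50. The changed genes had a mean of 10 CPM or more, and counts were drawn independently for each gene. Shifts shared by many genes of 1 library, as in Control Ab 3, were not simulated, so this recovery need not hold for the members. All 8 members are named; of other lists, up to 2 of the most abundant genes. Clec4f, Timd4, Cd163, S100a8, Ngp and Cpa3 were named after their values were seen. The members and lists were chosen with earlier results of these data known. Replicates with the same number did not pair (r from -0.11 to 0.0224).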

Additional observations from a re-analysis of the deposited data

Results flagged for a closer look

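In the CIS+IT group the summed level of 6 basophil and mast cell markers was far above the rest in 1 library, at 389.6 CPM in CIS+IT 4, against 3.85 to 28.1 CPM in the other 6. Cpa3, a carboxypeptidase of mast cells and basophils, made up most of it, at 377 CPM. CIS+IT 4 was also the highest library for Fn1, at 734 CPM. Chance marks about 1 in 20 groups, and 46 groups were checked; no single member stood out in this way in either group.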

How the results depend on the processing

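None of the 185 fold changes of members recomputed under alternatives passed the test (smallest adjusted p = 0.223, Lyz2 without Control Ab 3 and 4), and 29 changed sign. The count of genes called was 82 with DESeq2 and 0 otherwise. Signs turned as follows, in log2. With detected genes as covariate, F13a1 had 1.23, Ly6c2 1.13, Lyz2 1.98 and Ms4a7 0.59. With limma-voom these were 0.67, 1.28, 1.48 and 1.29, and without Control Ab 3 and 4 they were 2.29, 2.13, 3.03 and 1.24. With the replicate block, F13a1 had 0.98, Ly6c2 0.43 and Lyz2 1.06, and the block called 0 genes; the numbers are only shared numbers, not pairs. With the identifier letters as covariate, where the treatment rests on CIS+IT 1, Ccr2 had -0.20, Fn1 -1.89 and Ly6c2 0.95. Lyz2 had 0.032 with no filter and 0.0018 with Lyz1 added. Leaving out each library in turn gave -0.40 to 1.91 for Lyz2, 0.15 to 0.50 for Csf1r, -0.80 to 1.33 for Ly6c2, -0.20 to 1.72 for Ccr2, -0.93 to 0.89 for F13a1, 1.24 to 3.93 for Fn1, -0.23 to 1.74 for Mpeg1 and -0.91 to 0.34 for Ms4a7; Control Ab 3 decided the high end of each, and Ccr2 and Mpeg1 lay below 0 without CIS+IT 6, and Lyz2 above 0 without CIS+IT 1, 2 or 7. The cause was not tested. With CPM of the library total, 2 pairs of members passed by Pearson. Without 1 CIS+IT library, 0 to 2 did, and r of Lyz2 and Ccr2 was 0.928 to 0.993. Levels per kb moved by less than their SD with CPM of the library total. Few counts limit Ms4a7.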

Other observations

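Among the lineage transcription factors, Cebpa, which drives granulocyte and monocyte fate, was singled out after its values were seen. It held 4.69, 2.21, 9.86, 5.54, 6.38, 11.9 and 2.19 CPM in CIS+IT 1 to 7, against 0 counts in all 4 Control Ab libraries. Every CIS+IT library was thus above every control, as for 0.509% of all tested genes. The CIS+IT mean was at least 41.1-fold higher, taking 3 counts over all Control Ab libraries as the floor. That bound is for counting error only and leaves out the spread between mice. It did not pass adjusted over all genes (edgeR adjusted p = 0.488), and the leading digits of the identifiers, 19 and 20, separate the same libraries.

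The non-classical genes Cx3cr1, a fractalkine receptor, Ace, a peptidase, and Treml4, a receptor of the TREM family, were also picked after their values were seen. Cx3cr1 ran from 5.005 to 137 CPM in CIS+IT libraries and was 6.21, 0, 66.5 and 62.9 CPM in Control Ab 1 to 4. Ace ran from 8.83 to 223 CPM, against 3.17, 0, 164 and 64.0 CPM in Control Ab 1 to 4. Treml4 ran from 18.8 to 612 CPM, against 66.1, 17.0, 415 and 279 CPM. All 3 were high in both Control Ab 3 and Control Ab 4, whereas Ccr2 was high in Control Ab 3 and lowest of all libraries in Control Ab 4. CIS+IT 3 held the least of each in its group.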
